A study of Mus musculus with 6 samples.

Results

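Mitochondrial DNA is transcribed and copied by proteins encoded in the nucleus, and the mitochondrial network is shaped by dynamin-like GTPases that join or divide its membranes. The 10 genes described here cover both tasks. They were matched by name among 54446 annotated mouse genes, and were chosen with earlier results of these data known. *Tfam*, *Polrmt*, *Tfb2m* and *Polg* encode the packaging factor, RNA polymerase, initiation factor and DNA polymerase of the organelle. *Nrf1* (nuclear respiratory factor 1) and *Ppargc1b* (the coactivator PGC-1β) encode regulators of nuclear genes for mitochondrial proteins. *Mfn1* and *Mfn2* join outer membranes, *Opa1* joins inner membranes and shapes cristae, and *Dnm1l* (DRP1) divides the organelle. A T cell leaving the resting state enlarges its mitochondrial mass, and these genes are commonly followed as markers of that process.

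The RNA came from CD8+ T cells of spleens of wild-type C57BL/6 mice aged 8 weeks, enriched by removing other cells. Unstimulated cells were used fresh, control cells were stimulated through CD3 and CD28 with antibodies for 72 h without magnets, and SMF-treated cells were stimulated in the same way for 72 h on magnets giving a static field of 0.3 T. Each of the 3 groups held 2 libraries, and the labels do not say whether the 2 came from separate mice or cultures, so the tests below measure only the spread between these libraries. The files give FPKM (fragments per kilobase of transcript, per fixed number of fragments mapped), which was summed over the transcripts of a gene, and values are listed below in the order replicate 1, replicate 2.

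The 6 libraries were shallow and uneven. The summed base coverage was 64.4 to 172 Mb in the control libraries, 67.4 to 132 Mb in the unstimulated libraries and 227 to 259 Mb in the SMF libraries. The folder dates in the file headers paired each control library with the unstimulated library of its number, in June and November 2017, and put both SMF libraries in October 2018. The field and that date therefore cannot be told apart. All 8 markers listed for CD8 T cells were above 0 in every library, with sums of 915 to 1031 FPKM in unstimulated, 554 to 747 in control and 1126 to 1150 in SMF-treated cells. Only *Cd8a* and *Cd8b1* in that list separate CD8 from other T cells. In the same order *Cd8a* read 92.5 and 104.9, 35.5 and 60.0, and 192.1 and 186.3 FPKM. *Cd8b1* read 142.7 and 271, 50.3 and 122.5, and 94.6 and 91.9 FPKM. *Gzmb*, the gene of the killing protease granzyme B, read 10.2 and 11.7 FPKM in unstimulated cells, 1494 and 1565 in control cells and 2282 and 4283 in SMF-treated cells, so the stimulated groups matched their labels. Protein-coding genes held 49.1% to 50.5% of all FPKM in the control and unstimulated libraries and 68.7% to 69.2% in the SMF libraries. That difference in makeup runs beside every comparison with SMF below, and its part in them was not tested. No gene of the mitochondrial genome was listed above 0 in any library, so the transcripts that these proteins act on were not measured.

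The promoters of these genes were searched for the letters of known factor sites. RefSeq gives promoter sequence (GRCm38.p6, 250 bases before to 50 after the transcript start) for 9 of the 10 genes, all but *Ppargc1b*. The counts below are of genes with a match in any of their promoters, while the shares beside them are of single promoters. *Nrf1*, *Mfn2* and *Dnm1l* have 2, 3 and 2 promoters and so more room for a match, and the 2 kinds of figure are not directly comparable. The letters CCGGAAG, the core bound by ETS factors such as GABPA, were searched on both strands and occurred in 5 of the 9, against 8.86% of 32851 promoters and 11.9% of those of protein-coding genes. The letters GCGCANGCG, the core of the site bound by NRF1 itself, occurred in 3 of the 9, against 6.25% of all and 8.91% of protein-coding promoters. The promoters of *Nrf1* and *Mfn2* held neither. The E-box CACGTG occurred in none of the 9, against 7.15% of all promoters. The runs below, 30 bases each and written 5′ to 3′ on the strand of the gene, are shown because NRF1, one of the 10, and GABPA are known for sites of this kind in genes of the mitochondrion. Capitals mark the matched letters.
*Tfam* (chr10:71238073-71238102, minus strand, ETS letters): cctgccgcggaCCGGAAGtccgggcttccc
*Polrmt* (chr10:79746606-79746635, minus strand, ETS letters): ccctaagagcgCTTCCGGcagtcgcagaac
*Polg* (chr7:79466293-79466322, minus strand, ETS letters): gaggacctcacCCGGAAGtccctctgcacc
*Mfn1* (chr3:32529427-32529456, plus strand, ETS letters): gatccgaagcgCCGGAAGtagccgccccta
*Dnm1l* (chr16:16358545-16358574, minus strand, ETS letters): gctgtcgcttcCTTCCGGccgctgaggacg
*Polrmt* (chr10:79746564-79746593, minus strand, NRF1 letters): caggcggCGCGTGCGCGTGCGCactgcggg
*Tfb2m* (chr1:179546245-179546274, minus strand, NRF1 letters): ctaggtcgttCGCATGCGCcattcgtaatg
*Opa1* (chr16:29579265-29579294, plus strand, NRF1 letters): gtggctccccGCGCATGCGCatgtcatccg
In *Tfam*, *Polrmt*, *Polg* and *Mfn1* the ETS letters began at positions -47, -43, -38 and -44 from the start, and in *Dnm1l* at position 13. The *Dnm1l* match is in only 1 of its 2 promoters. The annotated exon beside that match (chr16:16358499-16358545) had no coverage in any library. The first exon of the gene had coverage in every library except unstimulated replicate 1. The *Polrmt* and *Opa1* runs each hold 2 overlapping NRF1 matches. A match describes the letters and not the binding of a factor.

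**Figure D1:**
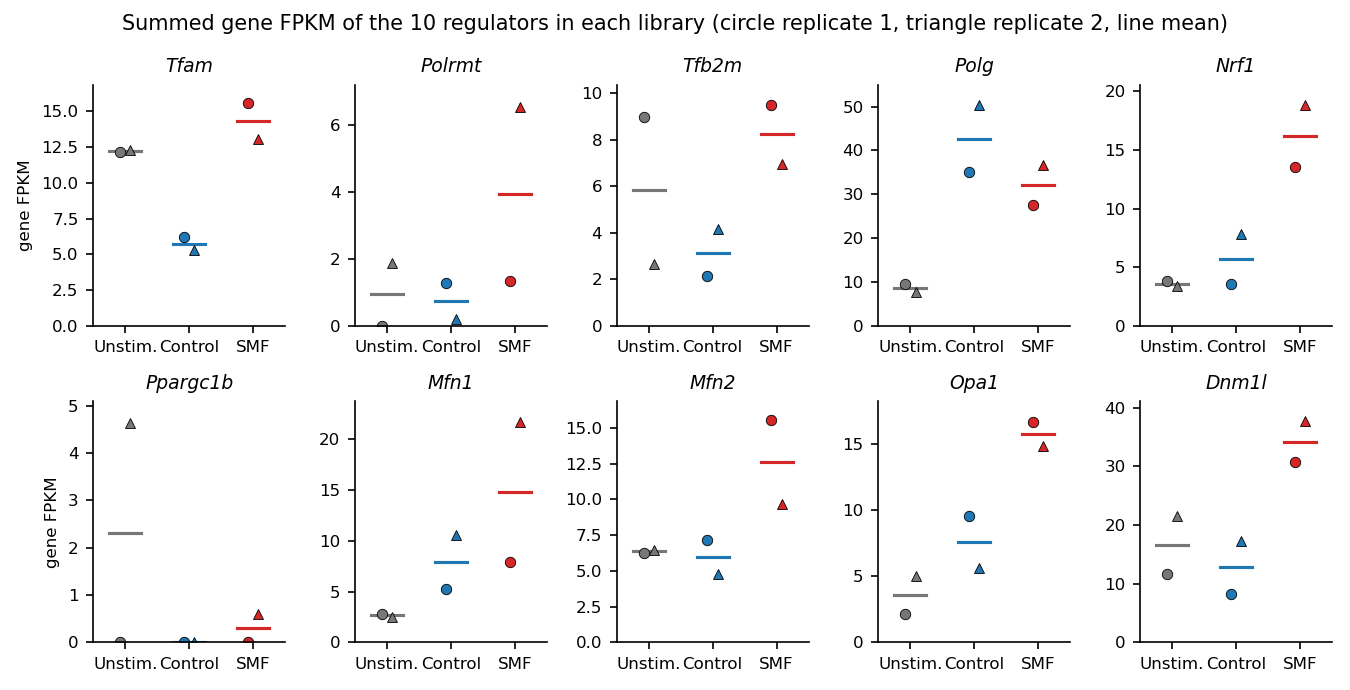
Summed gene FPKM of each of the 10 genes (vertical axis, starting at 0, own scale per gene) in the unstimulated, control and SMF libraries. Circles are replicate 1, triangles replicate 2 and lines group means of 2 libraries. For 7 of the 9 tested genes both SMF points are above both control points, and *Polg* shows its highest points in control cells.

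Among the genes of mitochondrial transcription, *Tfam* (chr10:71225464-71238280, minus strand) gave the tightest replicates. It read 12.2 and 12.3 FPKM in unstimulated cells (12.2 ± 0.111, SD, n = 2), 6.19 and 5.29 in control cells (5.74 ± 0.641) and 15.6 and 13.0 in SMF-treated cells (14.3 ± 1.78). No library of one group overlapped another, in the order SMF, unstimulated, control. On the log2(FPKM + 1) scale, which every fold change below uses, SMF exceeded control by 1.18 (95% interval 0.27 to 2.09, SE 0.37, adjusted p = 0.181, limma). *Polrmt*, the polymerase (chr10:79736123-79746581, minus strand), sat near the floor, at 0 and 1.88 FPKM in unstimulated cells, 1.27 and 0.219 in control cells and 1.33 and 6.54 in SMF-treated cells, and its groups overlapped or nearly touched. *Tfb2m*, which opens the promoter for the polymerase (chr1:179528055-179546267, minus strand), read 8.99 and 2.67 FPKM in unstimulated cells, 2.13 and 4.15 in control cells and 9.51 and 6.97 in SMF-treated cells. Its unstimulated libraries overlapped both stimulated groups, and neither gene passed the test in any comparison. *Tfb2m* also has a near-identical copy, the pseudogene *Gm1818*, 99.33% identical over 1187 bases and listed at 0 to 9.01 FPKM, so reads could have been split between them.

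*Polg*, the polymerase that copies mitochondrial DNA (chr7:79446231-79466362, minus strand), was higher after stimulation with and without the field, with most of that coverage in its last exon. In summed FPKM it read 9.49 and 7.75 FPKM in unstimulated cells (8.62 ± 1.23), 35.1 and 50.3 in control cells (42.7 ± 10.7) and 27.6 and 36.7 in SMF-treated cells (32.2 ± 6.48). Both stimulated groups lay above the unstimulated libraries, and they overlapped each other. The difference was 2.17 in control against unstimulated cells (SE 0.36, adjusted p = 0.0235) and 1.78 in SMF against unstimulated cells (SE 0.36, adjusted p = 0.0199). Within the pairs that share a header date the control library was higher by 1.78 in June and 2.55 in November 2017 on the same log2 scale.

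The regulators of nuclear genes behaved differently from each other. *Nrf1* (chr6:30047988-30153458, plus strand) read 3.80 and 3.42 FPKM in unstimulated cells (3.61 ± 0.270), 3.59 and 7.87 in control cells (5.73 ± 3.02) and 13.6 and 18.8 in SMF-treated cells (16.2 ± 3.71). The SMF libraries stood above the rest, and control replicate 1 sat between the unstimulated libraries. *Nrf1* rose in SMF against control by 1.41 (SE 0.50, adjusted p = 0.201) and in SMF against unstimulated cells by 1.89 (SE 0.50, adjusted p = 0.0413). *Ppargc1b* was listed at 0 in both control libraries, in SMF replicate 1 and in unstimulated replicate 1, at 4.62 FPKM in unstimulated replicate 2 and at 0.600 in SMF replicate 2. Its mean over the libraries was under the 1 FPKM needed for testing, so it has no fold change here and the counts below are over 9 genes.

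Of the fusion genes, *Mfn1* (chr3:32529465-32579239, plus strand) read 2.82 and 2.49 FPKM in unstimulated cells (2.66 ± 0.238), 5.27 and 10.6 in control cells (7.93 ± 3.76) and 7.93 and 21.6 in SMF-treated cells (14.8 ± 9.69). Both stimulated groups lay above the unstimulated libraries and overlapped each other. *Mfn2* (chr4:147873599-147904704, minus strand) read 6.29 and 6.44 FPKM in unstimulated cells (6.36 ± 0.105), 7.16 and 4.76 in control cells (5.96 ± 1.70) and 15.5 and 9.69 in SMF-treated cells (12.6 ± 4.14). Only its SMF libraries stood apart from the other groups. *Opa1* (chr16:29579334-29654884, plus strand) read 2.12 and 5.02 FPKM in unstimulated cells (3.57 ± 2.05), 9.55 and 5.60 in control cells (7.58 ± 2.80) and 16.6 and 14.8 in SMF-treated cells (15.7 ± 1.29), with no overlap between neighbouring groups. In SMF against unstimulated cells *Opa1* rose by 1.95 on the log2 scale (SE 0.51, adjusted p = 0.0414) and *Mfn1* by 1.96 (SE 0.61, adjusted p = 0.0637).

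*Dnm1l*, the fission GTPase (chr16:16312230-16358959, minus strand), had the highest level of the membrane genes per kilobase of transcript in each group. It read 11.6 and 21.5 FPKM in unstimulated cells (16.6 ± 7.03), 8.32 and 17.3 in control cells (12.8 ± 6.38) and 30.7 and 37.7 in SMF-treated cells (34.2 ± 4.92). Unstimulated and control libraries overlapped, and both SMF libraries lay above them. The difference between SMF and control was 1.42 on the log2 scale (95% interval 0.24 to 2.61, SE 0.49, adjusted p = 0.195). Its exons share 243 bases with the antisense gene *Gm49521*, which read 84.2 to 148 FPKM over the libraries.

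The first comparison is that of stimulation without the field. A gene was called when its fold change was at least 2 and its unadjusted p at most 0.05. In control against unstimulated cells 1 of 9 genes was called higher, *Polg*, where 12.3% of 14991 tested genes were, and none was called lower, where 12.6% of tested genes were. The median log2 fold change of the 9 was -0.03, against -0.05 over all tested genes. *Tfam* was lower by -0.98 (95% interval -1.88 to -0.07, adjusted p = 0.161), just short of the fold required. It was also lower within both pairs that share a header date, by -0.87 and -1.08. With the libraries set to one sum over protein-coding genes the value was -1.12 and the gene was called lower. Markers of other cells differed between the groups, some in each direction. The 7 B cell markers summed to 289 to 311 FPKM there, 45.4 to 48.2 in control cells and 67.8 to 73.4 in SMF-treated cells. The 8 myeloid markers summed to 140 to 163, 47.0 to 53.8 and 47.5 to 51.4 FPKM, of which *Csf1r* made up most in the stimulated groups, with *Lyz2* at 0 in all 4 of them. The 5 NK cell markers summed to 23.3 to 45.4, 8.02 to 10.3 and 3.37 to 6.96 FPKM, the 6 erythroid markers to 18.3 to 21.8, 5.21 to 7.16 and 1.51 to 10.1, and the 4 platelet markers to 0.764 to 4.46, 0 and 0.335 to 10.6. The sum of the 5 CD4 T cell markers was higher after stimulation, at 16.5 to 31.2, 71.2 to 122 and 77.6 to 119 FPKM. Most of that sum in stimulated cells was *Ctla4*, at 0 and 1.99, 109 and 48.4, and 64.8 and 105 FPKM. *Cd40lg*, at 6.21 and 2.34 FPKM in unstimulated cells, was at 0 in every stimulated library. *Cd4* read 2.05 and 4.68, 0 and 2.18, and 0 and 0 FPKM. *Zbtb7b* was lower in both stimulated groups, and *Foxp3* stayed within its unstimulated range of 4.92 to 20.7 FPKM. The part of these cells in the differences from unstimulated cells was not tested, and in such bulk RNA fewer cells of a type and less RNA per cell cannot be told apart.

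The comparison of SMF-treated with control cells addresses the study's question of whether a moderate field changes stimulated CD8+ T cells. *Tfam*, *Nrf1* and *Dnm1l* were called higher, 3 of 9 genes, where 12.5% of all tested genes and 15.9% of the protein-coding ones were. None of the 9 was called lower, where 5.72% of tested genes were. For 7 of the 9 the lower SMF library exceeded the higher control library, as it did for 37.4% of tested genes. The fold change was above 0 for 8 of the 9, with *Polg* at -0.39 (95% interval -1.26 to 0.48) as the exception. The median of the 9 was 1.18, against 0.32 over all tested genes and 0.57 over the protein-coding ones. The genes not called had intervals that held both no change and a large rise: *Polrmt* 1.33 (-0.83 to 3.50), *Tfb2m* 1.19 (-0.36 to 2.74), *Opa1* 1.0 (-0.25 to 2.25), *Mfn2* 0.96 (-0.14 to 2.05) and *Mfn1* 0.74 (-0.74 to 2.22).

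These 3 calls did not hold under every treatment of the libraries. No member passed with an adjusted p under 0.05, and only 4 of 14991 genes did. With every library shifted to one median the 3 differences were 0.84 for *Tfam*, 1.07 for *Nrf1* and 1.08 for *Dnm1l*, and none of the 9 was called. With one sum over protein-coding genes they were 0.88, 1.11 and 1.10, again with none called. Of all tested genes 5.85% were called higher and 9.61% lower with one median. With one sum the shares were 6.12% and 8.65%. Over all genes the share of calls that were higher moved from 68.6% to 37.8% and 41.4% under those 2 scalings. Without SMF replicate 1 no member was called. Without SMF replicate 2, or without control replicate 1, *Tfam* alone was, with *Nrf1* at 1.19 and 0.94 and *Dnm1l* at 1.28 and 0.93. The direction of the 3 genes did not change under any alternative.

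In SMF against unstimulated cells *Polg*, *Nrf1*, *Opa1* and *Mfn1* were called higher, 4 of 9, where 22.4% of all tested genes and 28.0% of the protein-coding ones were, and none was called lower, where 14.8% were. Their median was 1.3, beside 0.27 for the 14991 tested genes and 0.60 for the protein-coding ones. *Tfam* differed by 0.20 (95% interval -0.70 to 1.11), so its SMF level and its fresh level could not be separated in this measure. *Mfn1* rested on SMF replicate 2, without which its difference was 1.29 and it was not called. Whether the field comparison and the stimulation comparison differ for a gene was not tested, since both use the same control libraries.

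**Figure D2:**
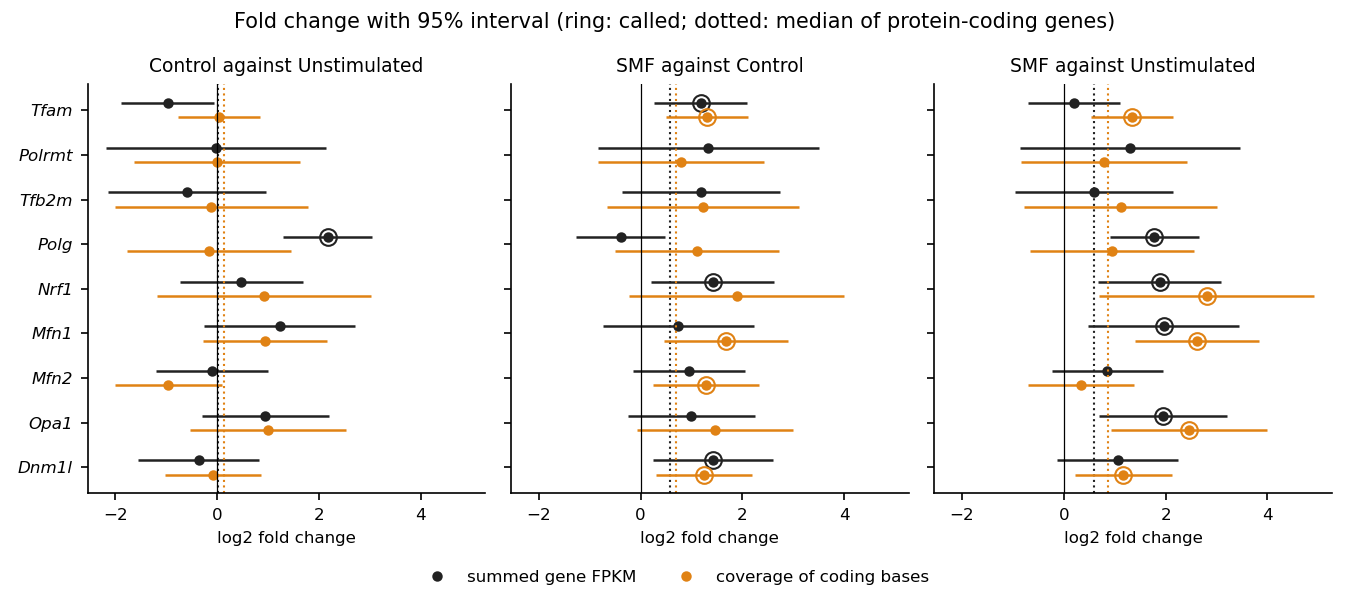
Log2 fold change (horizontal axis) of the 9 tested genes in the 3 comparisons, with 95% intervals, from summed gene FPKM (black) and from coverage of coding bases (orange). Rings mark genes called, and dotted lines the median of protein-coding genes. For *Polg* in control against unstimulated cells the black point is at 2.17 and the orange one at -0.16.

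Summed FPKM gives each transcript the same weight per kilobase, so a few reads on a short transcript can carry a gene. For *Tfam* the 472-base transcript Tfam-205 held 9.59 and 8.62 FPKM in unstimulated cells, 0 and 0.925 in control cells and 5.53 and 0.168 in SMF-treated cells. The full 4167-base Tfam-201 read 2.55 and 2.86, 6.19 and 4.05, and 8.46 and 12.9 FPKM in the same order. Read on the long transcript, control cells were above unstimulated cells and SMF-treated cells above both. *Dnm1l* in SMF-treated cells drew 13.6 and 18.4 FPKM from the retained-intron transcript Dnm1l-206, which had 0.674 FPKM in control replicate 2 and 0 in the other 3 libraries. In SMF replicate 1 *Opa1* drew 11.2 of its 16.6 FPKM from the retained-intron transcript Opa1-204. *Mfn1* in control replicate 2 drew 9.12 of its 10.6 FPKM from the 588-base retained-intron transcript Mfn1-209. *Mfn2* and *Tfb2m* were nearly free of this, with 1 transcript each carrying the signal in almost every library.

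A second measure was therefore added after these values had been seen. The coverage that the files give for each exon was averaged over the coding bases of a gene and put on the FPKM scale. *Tfam* then read 10.5 and 11.3 in unstimulated cells, 10.5 and 11.8 in control cells and 32.7 and 25.7 in SMF-treated cells. Control and unstimulated libraries were interleaved and both SMF libraries stood more than 2 times higher. The differences were 0.03 in control against unstimulated cells (95% interval -0.78 to 0.84), 1.31 in SMF against control (0.50 to 2.12, adjusted p = 0.109) and 1.34 in SMF against unstimulated cells (0.53 to 2.14, adjusted p = 0.0277). The lower *Tfam* level in control cells was thus not seen over its coding bases, and a rise over fresh cells appeared that the summed FPKM did not show. With the libraries also set to one sum that rise was 0.49 (95% interval -0.32 to 1.29, adjusted p = 0.339) and was not called.

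*Polg* changed most between the measures. Over its coding bases it read 7.62 and 2.09 in unstimulated cells, 2.14 and 5.77 in control cells and 9.57 and 8.32 in SMF-treated cells, and the difference of control from unstimulated cells was -0.16 (95% interval -1.77 to 1.44). The signal behind the called rise lay in the last exon (chr7:79446231-79450037), 3807 bases of which 100 are coding. That exon read 8.41 and 6.96 in unstimulated cells, 67.6 and 48.5 in control cells and 37.9 and 40.9 in SMF-treated cells. The coding bases of the other exons read 7.60 and 1.96, 0.390 and 4.63, and 8.82 and 7.45 in the same order. In control replicate 1, 98.1% of the *Polg* coverage fell in that last exon, which is 35.4% of the exonic length, and 2 of the 22 coding segments upstream of it had any coverage. *Fanci*, a DNA repair gene on the opposite strand, shares 921 exonic bases with *Polg* and read 59.9 and 55.8 FPKM in unstimulated cells, 36.7 and 45.5 in control cells and 30.6 and 39.1 in SMF-treated cells. The kit is stranded and the files were made with a strand setting, and whether reads of the facing gene or of another transcript entered the last exon was not tested.

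**Figure D3:**
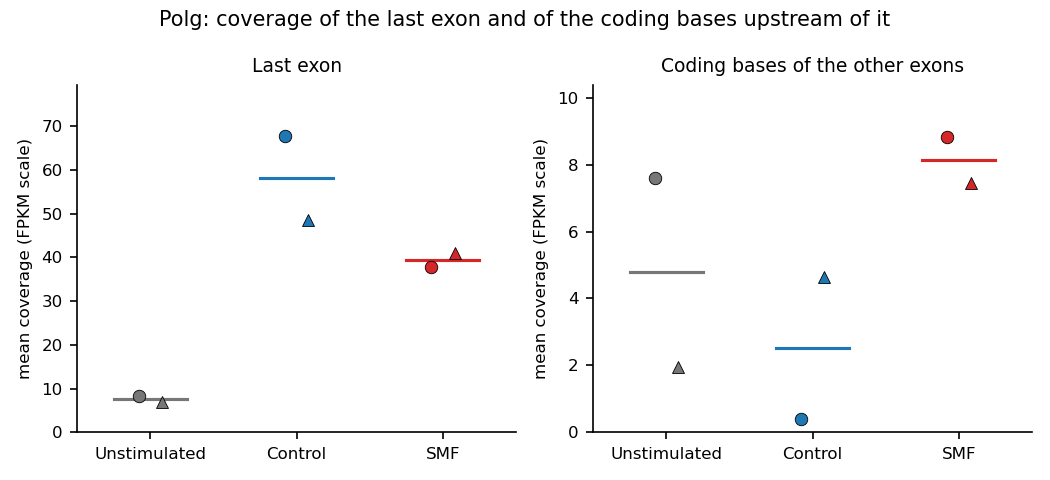
Mean coverage per base of *Polg* on the FPKM scale (vertical axes, starting at 0) in its last exon (left) and in the coding bases of its other exons (right), by library. Circles are replicate 1, triangles replicate 2 and lines group means. The last exon separates all stimulated libraries, at 37.9 to 67.6, from the unstimulated ones at 6.96 and 8.41, while the coding bases upstream overlap between these groups.

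Of the membrane genes over their coding bases, *Mfn1* read 1.64 and 1.01 in unstimulated cells, 3.58 and 3.25 in control cells and 9.98 and 17.4 in SMF-treated cells, with no overlap between groups. Of its 17 coding segments 3 and 5 had coverage in unstimulated cells, 3 and 10 in control cells and 14 and 17 in SMF-treated cells. The low values rest on little coverage, and shallow depth and a low level cannot be told apart there. *Opa1* read 1.09 and 6.18, 7.36 and 6.14, and 17.6 and 23.7, and *Dnm1l* 9.60 and 17.4, 10.6 and 14.0, and 29.7 and 31.2. Coverage fell on 4 and 18, 13 and 27, and 28 and 27 of the 30 coding segments of *Opa1*, so its low unstimulated values have the same limit. *Mfn2* followed another order, 7.18 and 7.11 in unstimulated cells, 3.06 and 3.33 in control cells and 11.0 and 7.78 in SMF-treated cells. Coverage fell on 8 and 8, 4 and 11, and 14 and 13 of the 18 coding segments of *Mfn2*, where the same limit holds. Its control libraries were the lowest, where the other membrane genes had theirs at or above the unstimulated level or within its spread. The difference of *Mfn2* between control and unstimulated cells was -0.96 (95% interval -2.0 to 0.08, adjusted p = 0.212), and it was called, at -1.21, only once the libraries were also set to one sum, where 14.3% of genes were called lower.

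*Nrf1* over its coding bases read 0.537 and 1.57 in unstimulated cells, 0.529 and 8.25 in control cells and 14.4 and 11.5 in SMF-treated cells. The spread of the control libraries left SMF against control at 1.89 with an interval of -0.22 to 3.99, and it was not called. The segments with coverage, of 14 coding segments, numbered 1 and 8 in unstimulated cells, 3 and 8 without the field and 10 and 14 with it, and shallow depth and a low level cannot be told apart there. *Tfb2m* read 13.3 and 1.72, 4.38 and 5.17, and 15.4 and 10.2, and *Polrmt* 0 and 1.66, 1.09 and 0.260, and 1.41 and 2.32, in the order unstimulated, control, SMF. In that order coverage fell on 6 and 4, 2 and 5, and 7 and 7 of the 8 coding segments of *Tfb2m*. For *Polrmt* it fell on 0 and 4, 7 and 1, and 7 and 16 of 21. The same limit holds for both.

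**Figure D4:**
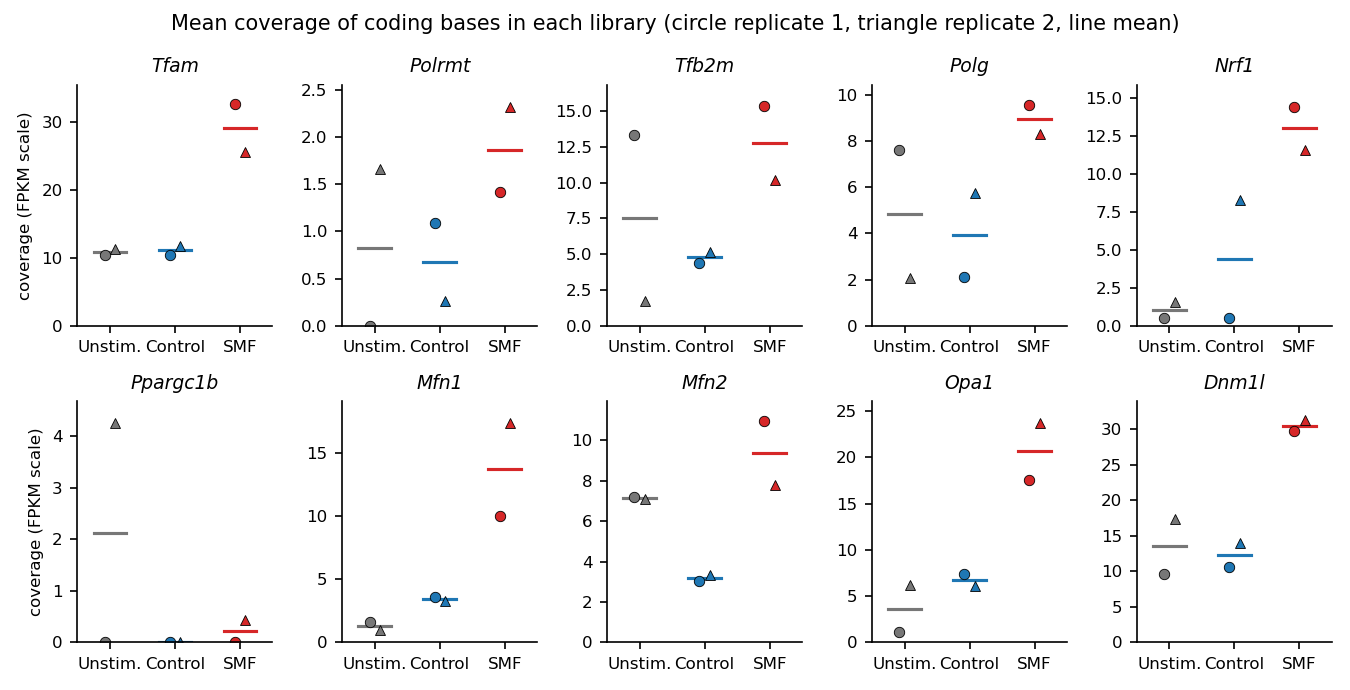
Mean coverage per coding base on the FPKM scale (vertical axis, starting at 0, own scale per gene) of the 10 genes in the 6 libraries. Circles are replicate 1, triangles replicate 2 and lines group means. Both SMF points lie above both control points for all 9 tested genes. The lower SMF and higher control points are 1.41 and 1.09 for *Polrmt* and 25.7 and 11.8 for *Tfam*.

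Over coding bases the SMF libraries were entirely above the control libraries for 9 of 9 genes, where this held for 53.4% of 9955 genes. *Tfam*, *Dnm1l*, *Mfn1* and *Mfn2* were called higher, 4 of 9, where 20.4% of those genes were, and the median was 1.29 against 0.70 over all of them. With the libraries also set to one sum, this held for 6 of 9 genes and for 29.3% of 10006 genes. None was then called, where 5.21% were called higher and 5.32% lower, and the median was 0.70 against 0.16. The difference of SMF from control over the coding bases of *Tfam* was 0.70 after that scaling (95% interval -0.11 to 1.5). In SMF against unstimulated cells *Tfam*, *Nrf1*, *Mfn1*, *Opa1* and *Dnm1l* were called higher over coding bases, 5 of 9 where 34.1% were. After the scaling *Mfn1* at 1.93, *Opa1* at 1.73 and *Nrf1* at 2.17 still were, where 18.2% were. Their adjusted p was 0.047, 0.113 and 0.133 (limma), and the interval of *Nrf1* was 0.03 to 4.31.

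The other genes of the same processes were read in summed FPKM from lists of named pathways. Their counts are read against the shares of tested genes called, which were 12.3% higher and 12.6% lower in control against unstimulated cells, 12.5% and 5.72% in SMF against control cells and 22.4% and 14.8% in SMF against unstimulated cells. Of 23 tested genes of mitochondrial DNA copying and transcription, 2 were called higher and 2 lower in control against unstimulated cells, no more than those shares. *Slirp*, an RNA-binding partner of mitochondrial messengers, read 54.7 and 22.1 FPKM in unstimulated cells, 362 and 345 in control cells and 270 and 266 in SMF-treated cells. *Lonp1*, the matrix protease that degrades TFAM, rose by 2.28 (adjusted p = 0.0190), from 6.72 and 10.2 to 38.3 and 51.1 FPKM. The 2 lower genes were *Tk2*, a mitochondrial thymidine kinase, at -3.74 (adjusted p = 0.0241), and *Mterf3*, a repressor of mitochondrial transcription, at -3.37 (adjusted p = 0.0461). In SMF against control cells 5 of the 23 were called higher and none lower, where 15.9% and 2.57% of protein-coding genes were, with a median of 0.71 against their 0.57. The 2 with the largest change were *Mterf3*, at 0 and 3.01 FPKM in control cells and 16.1 and 25.4 in SMF-treated cells, and *Top1mt*, the mitochondrial topoisomerase, at 0 and 1.96 and 6.34 and 10.4. No gene called in SMF against control cells, from this list or those below, had an adjusted p under 0.05 (limma). The smallest such value was 0.1396, that of *Mterf3*.

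Of 13 tested further regulators of mitochondrial genes, the median in SMF against control cells was -0.07, on the other side of 0 from the 9 genes. *Hcfc1*, a transcriptional coregulator, was called higher in all 3 comparisons, at 6.98 and 5.75 FPKM in unstimulated, 14.5 and 26.3 in control and 37.6 and 44.0 in SMF-treated cells. Its adjusted p (limma) was 0.0758 in control against unstimulated, 0.2295 in SMF against control and 0.0111 in SMF against unstimulated cells. *Perm1*, known as a regulator of mitochondrial genes in muscle, was called lower in all 3, at 42.3 and 44.1, 16 and 5.84, and 2.13 and 2.55 FPKM. In the same order of comparisons its adjusted p (limma) was 0.0654, 0.1755 and 0.00793. No other gene of that list was called in any comparison.

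Of 15 tested genes of fusion, OPA1 processing and cristae outside the 10, 4 were called higher in control against unstimulated cells, 4 in SMF against control cells and 10 in SMF against unstimulated cells, and none lower. Of protein-coding genes 13.5%, 15.9% and 28.0% were called higher in these comparisons. The first 4 were *Apoo*, *Stoml2*, *Immt* and *Afg3l2*, with adjusted p of 0.056, 0.039, 0.063 and 0.085 (limma). *Immt*, which encodes the MICOS subunit mitofilin, read 7.72 and 9.14 FPKM in unstimulated, 20.7 and 35.7 in control and 60.8 and 88.5 in SMF-treated cells. In SMF against control cells the 4 were *Immt*, *Parl* and the prohibitins *Phb* and *Phb2*. *Phb2* read 21 and 52.8 FPKM in control cells and 125 and 120 in SMF-treated cells. The median in SMF against unstimulated cells was 2.08, against 0.60 over protein-coding genes.

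Of 13 tested fission genes other than *Dnm1l*, 5 were called higher in SMF against control cells and none lower, where 15.9% of protein-coding genes were called higher, and their median of 0.66 lay beside 0.57 for those genes. The 2 largest were *Mtfr2*, at 0 and 2.06 FPKM in control cells and 10.6 and 5.71 in SMF-treated cells, and *Mtfp1*, at 0 and 0.405 and 4.33 and 3.77. *Mtfr1* was the fission gene called lower in control against unstimulated cells, at 105 and 185 FPKM in unstimulated and 24.8 and 60.5 in control cells. Its adjusted p there was 0.105 (limma). In SMF against unstimulated cells 3 of the 13 were called higher and 1 lower, where 28.0% and 10.4% of protein-coding genes were. The lower one was again *Mtfr1*, at 19.9 and 40.8 FPKM in SMF-treated cells. *Fis1*, an outer membrane adaptor, was among the 3, at 13.5 and 10.6 FPKM in unstimulated and 61.8 and 69.9 in SMF-treated cells (adjusted p = 0.0544, limma).

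Likeness of pattern was measured as the root mean square distance between log2(FPKM + 1) profiles over the 6 libraries, each centred on its own mean, among the 9394 genes whose mean reached 5 FPKM. The genes closest to *Tfam* were *Srsf6* and *Erbin*, at 0.0834 and 0.0964. For *Nrf1* they were *D8Ertd738e* and *Cox7a2*, at 0.117 and 0.121, and *Cox7a2*, a subunit of cytochrome c oxidase, read 16.7 and 13.6, 15.1 and 33.7, and 62.1 and 73.0 FPKM. *Polg* was closest to *Vps29* and *Gm10874*, at 0.148 and 0.180. *Opa1* was closest to *Pcyt1a* and *Vps4b*, at 0.121 and 0.135, *Mfn2* to *Hcls1* and *Acap2*, at 0.108 and 0.113, and *Mfn1* to *Pcgf5* and *Rnf219*, at 0.234 and 0.241. *Tfb2m* was closest to *Pex2* and *Hmgb1*, at 0.0896 and 0.157, and *Dnm1l* to the pseudogene *Rps6-ps4* and to *Tmed10*, at 0.0850 and 0.119. *Polrmt*, whose replicates differ most, was closest to *Gm27415* and *Mcm9*, at 0.252 and 0.353. Among the 9 genes themselves the closest pair was *Tfam* and *Mfn2* at 0.397. With 6 points in 3 groups such distances describe these libraries only.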

How the data were processed

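The 10 genes and all lists were chosen with earlier results of these data known. The authors deposited 1 StringTie table per library, made with version 1.3.5 on GRCm38 with GENCODE M19, for annotated transcripts only and as stranded (per the file headers), after trimming with Trimmomatic 0.36 and alignment with HISAT2 to mm10 (per the submitters' processing notes). The deposited attributes are of other kinds than counts: FPKM and TPM, normalized by the authors' runs for depth and length, and coverage per base, not normalized. In a further table deposited for the series, 3 columns of values could be tied to none of the samples, and it was not used. Whole reads were not recovered, so no counting interval is given, and a 0 is only a listing at 0.

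FPKM was summed per gene identifier. Depth was taken as coverage times transcript length, summed. Gene types and coding bases came from GENCODE M21 (54409 identifiers matched, 37 did not). Coding coverage was weighted by coding bases of each exon and multiplied by the library's ratio of FPKM to coverage. The 14991 genes averaging 1 FPKM or more were fitted as log2(FPKM + 1) with limma 3.58.1 in R 4.3.3, on 3 groups of 2 libraries with the variance trend. Thresholds were a fold change of at least 2 and a two-sided p of at most 0.05, as in the study's methods, and adjusted p is Benjamini-Hochberg. The fit was tested on simulated data with known changes. Named beside the 10 genes were all called genes of a list where up to 4 were called in a direction, otherwise the 2 with the largest change, and the 2 nearest genes by pattern. In the lists, 2 symbols were matched through RefSeq synonyms. Promoters are RefSeq's. Further gene TPM, pseudocount, filter, scaling, block and left-out-library alternatives are in the closing section.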

Additional observations from a re-analysis of the deposited data

How the results depend on the processing

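Of the alternatives for single genes, 164 values in control against unstimulated cells, 157 in SMF against control cells and 166 in SMF against unstimulated cells kept their direction and call. In the same order 0, 25 and 11 values lost a call, 6, 3 and 5 gained one, and 17, 2 and 5 reversed. Only a called gene can lose a call, so the 25 all belong to the 3 genes called in SMF against control cells. The 3 called rises in SMF against control cells never reversed. Coverage over coding bases, one length per gene and protein-coding transcripts only were chosen after seeing the data, as was the block with only the 2 groups compared.

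In control against unstimulated cells 1 gene of the 9 was called, and 2 with log2(FPKM + 0.1), with log2(FPKM + 0.5), with one sum over protein-coding genes and with gene TPM, *Tfam* being the second, and 0 over coding bases. Leaving out single libraries gave 1 to 2. Genes called lower over all were 1886, and 1197 with a mean of at least 5 FPKM, 1007 with protein-coding transcripts only and 1010 over coding bases. The direction reversed for *Tfam* with one length per gene (0.35) and over coding bases (0.029). It reversed for *Polrmt* with log2(FPKM + 0.1) (0.57), log2(FPKM + 0.5) (0.048), one median (0.059) and one length per gene (0.0065). It reversed for *Polg* over coding bases (-0.16, and -0.39 with one sum), for *Nrf1* with one length per gene (-0.32) and for *Opa1* with protein-coding transcripts only (-0.49). Without single libraries *Polrmt* ranged from -0.79 to 0.73, *Tfb2m* from -1.32 to 0.13, *Nrf1* from -0.0034 to 0.95, *Mfn2* from -0.35 to 0.15 and *Dnm1l* from -0.85 to 0.12.

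In SMF against control cells genes called higher were 1868 over all, and 877 with one median, 924 with one sum over protein-coding genes and 521 over coding bases with one sum. Genes called lower were 857, and 1441, 1307 and 532 in the same order, 240 with protein-coding transcripts only and 203 over coding bases. Members called were 3, and 0 with one median, 0 with one sum and 0 over coding bases with one sum. Without single libraries the counts were 841 to 2276 higher, 526 to 1103 lower and 0 to 3 members, the lowest of each without SMF replicate 1. *Polg* reversed over coding bases (1.11, and 0.57 with one sum). *Nrf1* also lost its call without either unstimulated library (1.41), where only the shared spread changes.

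In SMF against unstimulated cells genes called higher were 3351, and 1824 over coding bases with one sum, and genes called lower were 2226, and 921 with protein-coding transcripts only and 864 over coding bases. Members called were 4, and 2 with protein-coding transcripts only, and 2 to 4 without single libraries. *Tfam* reversed with one median (-0.049) and one sum (-0.25), *Mfn2* over coding bases with one sum (-0.47), and *Opa1* with protein-coding transcripts only (-0.13). *Tfb2m* ranged from -0.13 to 1.32 without single libraries. Over all genes the share of calls that were higher was 60.1%, and 50.6% with one median and 43.7% with one sum over protein-coding genes.

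With the replicate number as a block 1, 3 and 5 members were called in the 3 comparisons, *Dnm1l* being added in SMF against unstimulated cells. Fitted on the 2 groups compared alone, the block left 1 member and 1182 higher genes in SMF against control cells. Deviations of same-numbered libraries correlated by 0.0963 between unstimulated and control cells, 0.0301 between unstimulated and SMF and 0.0206 between control and SMF. The main fit did not pair the samples by number. The header dates still link each control library to the unstimulated library of its number, which these low correlations do not undo. The cause of these changes was not tested. With 2 libraries per group, the spread is poorly known, and coverage was shallow.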
